A study of Pseudotsuga menziesii with 66 samples.

Results

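The subject here is a set of 158 needle transcripts of Douglas-fir (Pseudotsuga menziesii) whose level over a year of sampling was highest on 7 Apr 2011. They were chosen from 199471 transcripts by their levels in CPM, the count of a transcript divided by its library's total and scaled in the usual way, averaged within each of 16 collection dates. A transcript had to have a mean of 10 to 1000 CPM over the dates, a highest date mean at least 4 times the lowest, its highest mean on 7 Apr, and a level above its own 16-date mean in every library of 7 Apr. Of 11682 transcripts with a mean of 10 to 1000 CPM, 4708 had a range of at least 4, 206 of these were highest on 7 Apr, and 158 also met the condition on single libraries. The remaining 48 each had at least 1 library of 7 Apr at or under the transcript's mean. A further 430 transcripts of 10 to 1000 CPM were highest on 7 Apr with a range under 4 and are not among the 158.

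The needles came from 5 young trees (CCTO43, CCTO44, CCTO46, CCTO90 and CCTO89), all grown from low-elevation Oregon Siskiyou seed and planted together in a common garden at Central Point, Oregon. The seed of CCTO44 and CCTO90 came from a higher site than that of the other trees. All needles belonged to the set that formed in 2010, were taken at about noon without any treatment, and were followed from 27 Oct 2010 to 26 Oct 2011, so that season, needle age and the weather of that particular year cannot be told apart. Each library was made from needles of 1 tree on 1 date, with needles from the 4 sides of the crown combined. The 7 Apr libraries came from CCTO44, CCTO46, CCTO89 and CCTO90, because CCTO43 has no library here between 10 Mar and 7 Oct 2011. The other dates had 5 trees through 10 Mar (4 on 23 Feb), 4 trees from 6 May to 17 Aug, 2 on 7 Sep and 3 on both October dates of 2011.

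Douglas-fir is an evergreen conifer, and its needles stay alive through winter and work for more than a single growing season. In such needles frost hardiness builds up in autumn and is lost again in spring, while photosynthesis is held down in the cold months and recovers as temperature and day length increase. New shoots flush from the buds in spring, when older needles still supply much of the tree's carbon. No gene name or sequence stands beside an identifier in the deposited files, so the transcripts are given by identifier and no role is attached to any of them. RNA was measured from whole needles, in which fewer cells of a type and less RNA per cell cannot be told apart.

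The 66 libraries held 9924771 to 37373284 counts, with a median of 20944426, and those of 7 Apr held 18111800 to 36637529. An undetected transcript could still have had up to 3 counts, or 0.0819 to 0.166 CPM in the 7 Apr libraries, but none of the 158 transcripts had a count of 0 in any of the 66 libraries. The 20 most abundant transcripts of a library took 16.7% to 24.3% of the counts on 7 Apr, against 7.78% to 48.3% in the libraries of other dates, the highest of which was that of CCTO43 on 26 Oct 2011. After date means were removed, 64 of 66 libraries were closest to other libraries of their own tree. The exceptions were the 17 Aug libraries of CCTO44 and CCTO46, each of which was closest to the other's tree. Exchanging these libraries leaves every date mean as it is, and the number of transcripts that differed between trees is given below with and without them.

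Together the 158 transcripts made up 2.45% ± 0.416 of all counts on 7 Apr (SD, n = 4 trees). Their summed share was 0.609% ± 0.0906 on 27 Oct 2010 (n = 5), 0.509% ± 0.0685 on 30 Nov, 0.554% ± 0.0584 on 6 Jan 2011 and 0.629% ± 0.065 on 7 Feb. It was 0.987% ± 0.100 on 23 Feb (n = 4) and 1.54% ± 0.129 on 10 Mar (n = 5). After 7 Apr it was 1.38% ± 0.279 on 6 May, 1.27% ± 0.171 on 17 Jun and 0.943% ± 0.161 on 7 Jul (n = 4 each), and by 26 Oct 2011 it was 0.609% ± 0.031 (n = 3). The increase ran from February to 7 Apr. The larger part of the decrease to 26 Oct 2011 was already seen by 6 May, and the rest ran on through autumn. These values show what the choice of transcripts selected for and are given as a description. On 7 Apr the share was 2.67% in CCTO44, 2.81% in CCTO46, 2.43% in CCTO89 and 1.87% in CCTO90, so that CCTO90 lay lowest of the trees on the date that defines the set, yet above all libraries of all other dates.

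**Figure D1:**
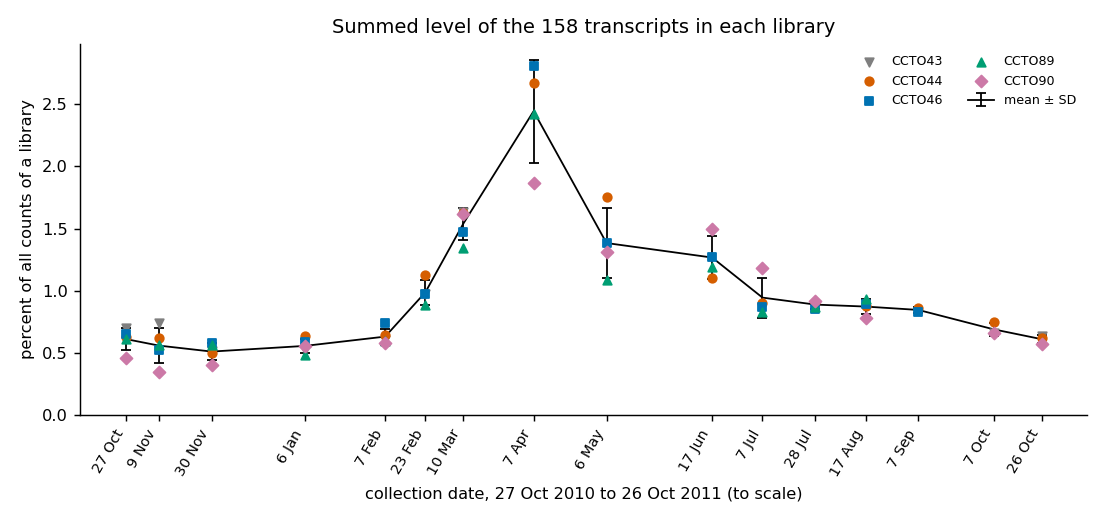
Summed level of the 158 transcripts as a percent of all counts of a library (vertical axis), for every library by collection date (horizontal axis, to scale). Symbols mark the 5 trees, and the line and bars give the date mean and SD; the 4 libraries of 7 Apr sit between 1.87% and 2.81%, above all libraries of the other 15 dates.

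For the transcript in the middle of the set, the profile was flatter than the sum. As a percent of its own 7 Apr level, the median transcript stood at 27.1% on 30 Nov, 28.7% on 6 Jan, 33.2% on 7 Feb, 49.8% on 23 Feb and 77.5% on 10 Mar. It then stood at 66.7% on 6 May, 60.6% on 17 Jun, 42.5% on 7 Jul, 42.4% on 17 Aug, 31.9% on 7 Oct and 21.8% on 26 Oct 2011. The level on 7 Apr was 1.46 to 5.67 times the mean of the other dates, with a median of 2.29. It reached 3 times that mean in 35 transcripts and stayed under 2 times in 27. The second highest date stood at a median of 84.8% of the 7 Apr level, and in 51 transcripts at more than 90%. Most profiles were thus broad elevations with their top on 7 Apr. In 5 transcripts no other date reached 50% of the 7 Apr level: psme_t009072, psme_t009090, psme_t009046, psme_t009596 and psme_t042730, picked out here after their values were seen.

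**Figure D2:**
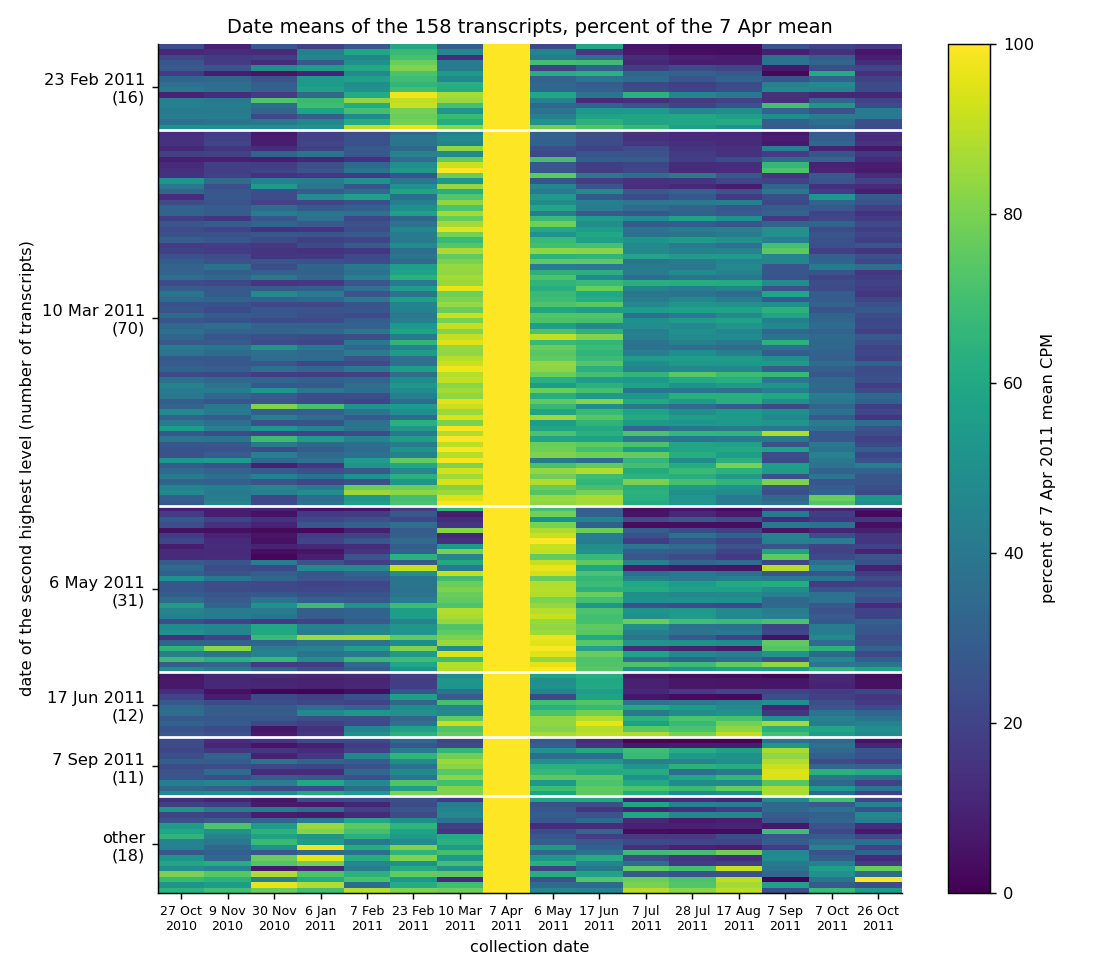
Date means of the 158 transcripts (rows) on the 16 collection dates (columns), as a percent of each transcript's 7 Apr mean CPM (colour). Rows are grouped by the date of the second highest mean, with the number of transcripts in parentheses; 70 of the 158 have it on 10 Mar and 31 on 6 May.

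The lowest date was 26 Oct 2011 in 55 transcripts, 30 Nov 2010 in 29 and 6 Jan 2011 in 19. It was 7 Sep in 17 and 17 Aug in 14, so the lowest date means lay both in winter and in late summer and autumn. The 26 Oct 2011 mean rests on 3 libraries and that of 7 Sep on 2. On 26 Oct 2011 the most abundant transcripts, counted as above, took 48.3% of the CCTO43 library. There the set's median was 8.725 CPM, against 15.41 CPM in CCTO44 and 14.61 CPM in CCTO90. This library can lower the 26 Oct 2011 means, and troughs were not counted without it. On 7 Sep the set's medians were close, 21.66 CPM in CCTO44 and 22.4 CPM in CCTO46. The highest date mean was 4.01 to 183 times the lowest, with a median of 5.65, and reached 10 times in 48 transcripts. Just inside the limit of 4 were psme_t008048 with a range of 4.01 and psme_t023864 with 4.03, and just outside it were psme_t029461 with 3.994 and psme_t024435 with 3.993. At the condition on single libraries, the lowest 7 Apr library of psme_t040383 stood at 1.02 times the transcript's 16-date mean and that of psme_t020139 at 1.05 times. That of psme_t024839, just outside, stood at 0.995 times and that of psme_t048635 at 0.991 times. The transcripts on either side of these limits differ little, and the set has no natural edge there.

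Of the 4708 transcripts of 10 to 1000 CPM with a range of at least 4, the 206 that were highest on 7 Apr made up 4.38%. That put 7 Apr at rank 10 of the 16 dates, well behind 6 Jan with 848 transcripts and 30 Nov with 784.

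Among the 158, a few kept every 7 Apr library clear of the rest of the year. All 4 libraries of 7 Apr lay above all libraries of other dates in 3 transcripts, psme_t009072, psme_t040567 and psme_t030371, and this held for 0.0428% of the transcripts of 10 to 1000 CPM. All 4 lay above all 10 Mar libraries in 25 of the 158 (2.09% of the transcripts of 10 to 1000 CPM) and above all 6 May libraries in 60 (8.48%). The choice of the set used these contrasts, so nothing is read from the shares. In the other transcripts at least 1 library of 7 Apr was matched or exceeded by a library of another date.

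Within 7 Apr the trees differed widely for some transcripts and little for others. The highest tree was a median of 1.92 times the lowest, under 2 times in 86 transcripts and over 4 times in 14. The widest gap was in psme_t042119, the transcript with the second largest ratio of 7 Apr to the other dates. On 7 Apr it had 801.5 CPM in CCTO44, 2468 CPM in CCTO46, 243 CPM in CCTO89 and 366 CPM in CCTO90, and its mean was 970 ± 1027 CPM (SD, n = 4). CCTO46 alone lay far above the other trees, and it was also the only tree in which 7 Apr was the highest date of this transcript. The means of the neighbouring dates were 469 ± 272 CPM on 10 Mar (n = 5), 558.5 ± 454 CPM on 6 May and 606 ± 514 CPM on 17 Jun (n = 4 each), followed by 67.8 ± 99.4 CPM on 7 Jul.

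The near-parallel pair psme_t046357 and psme_t031382 followed the same course, with a correlation of 0.999 between them on log2(CPM + 1) over the 66 libraries. On 7 Apr psme_t046357 had 574 CPM in CCTO44, 1812 CPM in CCTO46, 214 CPM in CCTO89 and 263 CPM in CCTO90. For psme_t031382 the 7 Apr levels were 573 CPM in CCTO44, 1795 CPM in CCTO46, 218.5 CPM in CCTO89 and 254.5 CPM in CCTO90. The sources used here do not say how the authors' counting divided reads between similar transcripts, so the members of such a pair are not separate observations. With a correlation above 0.98 as the mark, 19 of the 158 transcripts fell into 9 groups of this kind, which leaves 148 if each group is taken once. The median correlation between any 2 of the 158 was 0.462, across libraries that share dates and trees.

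By contrast, psme_t040567 was abundant and even across trees. It had 1342 CPM in CCTO44, 1670 CPM in CCTO46, 1438 CPM in CCTO89 and 1225 CPM in CCTO90 on 7 Apr, with a mean of 1419 ± 189 CPM (SD, n = 4), and 7 Apr was its highest date in all 4 trees. Its course over the year had the widest range of the set. The mean was 187 ± 96.75 CPM on 27 Oct 2010, 11.8 ± 7.15 CPM on 30 Nov, 7.75 ± 2.88 CPM on 6 Jan, 49.4 ± 18.5 CPM on 7 Feb, 371 ± 148 CPM on 23 Feb and 547 ± 169 CPM on 10 Mar. It stayed at 632 ± 325 CPM on 6 May and 793 ± 377 CPM on 17 Jun, and at 162 to 309 CPM from 7 Jul to 26 Oct 2011. The transcript thus passed through a deep winter low and was well above that low again from late February on.

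Only psme_t047981 was more abundant on 7 Apr. It had 3347 CPM in CCTO44, 3023 CPM in CCTO46, 3072 CPM in CCTO89 and 2058 CPM in CCTO90, a mean of 2875 ± 563 CPM, against 1358 ± 549 CPM on 10 Mar. Its mean on 6 May was 827 ± 364 CPM, and it had a second elevation at 1710 ± 497.5 CPM on 7 Jul. In CCTO90 the 7 Jul level exceeded that of 7 Apr. Its near-parallel partner psme_t085022, with a correlation of 0.993, had 1200 ± 326 CPM on 7 Apr and its second highest mean, 705 ± 256 CPM, also on 7 Jul.

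The transcript with the largest ratio, psme_t064138, had 125 CPM in CCTO44, 52.2 CPM in CCTO46, 18.3 CPM in CCTO89 and 46.05 CPM in CCTO90 on 7 Apr. Its mean was 39.3 ± 30.4 CPM on 10 Mar, 60.3 ± 45.4 CPM on 7 Apr and 42.6 ± 26.5 CPM on 6 May, with SDs larger than the differences between these means. The spring elevation as a whole was large: on 23 Feb and 17 Jun the means were 10.9 ± 8.71 CPM and 18.1 ± 8.53 CPM, and on the dates outside 23 Feb to 17 Jun they were 1.94 to 7.41 CPM. At the median rank, psme_t066197 had 98.3 CPM in CCTO44, 81.5 CPM in CCTO46, 106.5 CPM in CCTO89 and 55.1 CPM in CCTO90 on 7 Apr. Its mean was 85.4 ± 22.7 CPM on 7 Apr, against 78.6 ± 10.1 CPM on 10 Mar, a difference within the spread between trees, and its means from 27 Oct to 7 Feb were 18.8 to 29.0 CPM. For the third most abundant, psme_t037751, the 7 Apr levels were 2068 CPM in CCTO44, 1374 CPM in CCTO46, 689.5 CPM in CCTO89 and 1132 CPM in CCTO90. Its mean was 1194 ± 314.5 CPM on 10 Mar, 1316 ± 576 CPM on 7 Apr and 1193 ± 356 CPM on 6 May, which is a plateau over 3 dates within the spread between trees.

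Grouped by the date of the second highest mean, 70 of the 158 transcripts had it on 10 Mar, 31 on 6 May, 16 on 23 Feb, 12 on 17 Jun, 11 on 7 Sep and 18 on another date. The 10 Mar group was still low in February: its median level was 46.1% of the 7 Apr level on 23 Feb, 84.9% on 10 Mar, 67.5% on 6 May and 63.7% on 17 Jun. The 6 May group had 75.7% on 10 Mar and 88.8% on 6 May. The 17 Jun group, which holds psme_t042119 and its companions, had 51.8% on 10 Mar, 66.3% on 6 May and 69.9% on 17 Jun. The medians of the 3 groups lay furthest apart on 10 Mar, before the peak, and were closer on 17 Jun, where the 6 May group had 68.45%. The grouping by second date favours a gap on 10 Mar by its definition, so these medians are a description.

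The 23 Feb group was lower on 10 Mar. In it the median level was 58.1% on 7 Feb, 77.1% on 23 Feb and 58.1% on 10 Mar, while the 18 transcripts with another second date stayed at 52.4% to 58.2% from 30 Nov to 10 Mar. The 7 Sep group had 78.3% on 10 Mar, against 47.1% on 23 Feb. In all, 41 of the 158 transcripts (25.95%) were lower on 10 Mar than on 23 Feb, 18 of them in each of the 4 trees with both dates. Of the other transcripts of 10 to 1000 CPM with a range of at least 4, 30.15% were lower on 10 Mar than on both neighbouring dates, so a low 10 Mar was not a mark of the set. The example that stood highest on 7 Apr relative to its other dates was psme_t009072. It had 39.0 CPM in CCTO44, 27.5 CPM in CCTO46, 67.4 CPM in CCTO89 and 46.5 CPM in CCTO90 on 7 Apr, and its date means were 15.1 ± 1.78 CPM on 23 Feb (n = 4), 9.42 ± 2.27 CPM on 10 Mar (n = 5) and 12.2 ± 1.71 CPM on 6 May (n = 4). From 7 Jul to 17 Aug it was at 0.396 to 0.835 CPM, and on 7 Sep it was back at 20.2 CPM in CCTO44 and 13.7 CPM in CCTO46.

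The next one, psme_t004005, had 35.6 CPM in CCTO44, 22.3 CPM in CCTO46, 71.6 CPM in CCTO89 and 44.1 CPM in CCTO90 on 7 Apr. Its mean was 9.95 ± 3.00 CPM on 10 Mar, 43.39 ± 20.8 CPM on 7 Apr and 13.0 ± 2.78 CPM on 6 May, and its second highest value was on 7 Sep, with 19.6 CPM in CCTO44 and 26.3 CPM in CCTO46. Both transcripts thus had their highest mean on 7 Apr and their second highest on 7 Sep. On 7 Oct they still had 14.9 ± 0.902 CPM (psme_t009072) and 16.2 ± 2.66 CPM (psme_t004005). Levels of that size were not limited to autumn, since the 23 Feb means were 15.1 ± 1.78 CPM (psme_t009072) and 11.5 ± 2.58 CPM (psme_t004005). The 7 Sep means rest on 2 trees only, and so does the membership of 11 transcripts in the 7 Sep group.

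The 3 near-parallel transcripts psme_t009090, psme_t009046 and psme_t009596, with pairwise correlations of at least 0.986, were highest on 7 Apr in all 4 trees. On that date psme_t009090 had 38.2 CPM in CCTO44, 52.9 CPM in CCTO46, 54.1 CPM in CCTO89 and 120.0 CPM in CCTO90, and psme_t009046 had 36.1 CPM in CCTO44, 55.1 CPM in CCTO46, 50.5 CPM in CCTO89 and 102.3 CPM in CCTO90. The mean of psme_t009090 was 28.7 ± 16.1 CPM on 10 Mar, 66.3 ± 36.5 CPM on 7 Apr and 20.2 ± 10.8 CPM on 6 May. Unlike in psme_t042119, where CCTO46 stood out, CCTO90 was the high tree here.

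**Figure D3:**
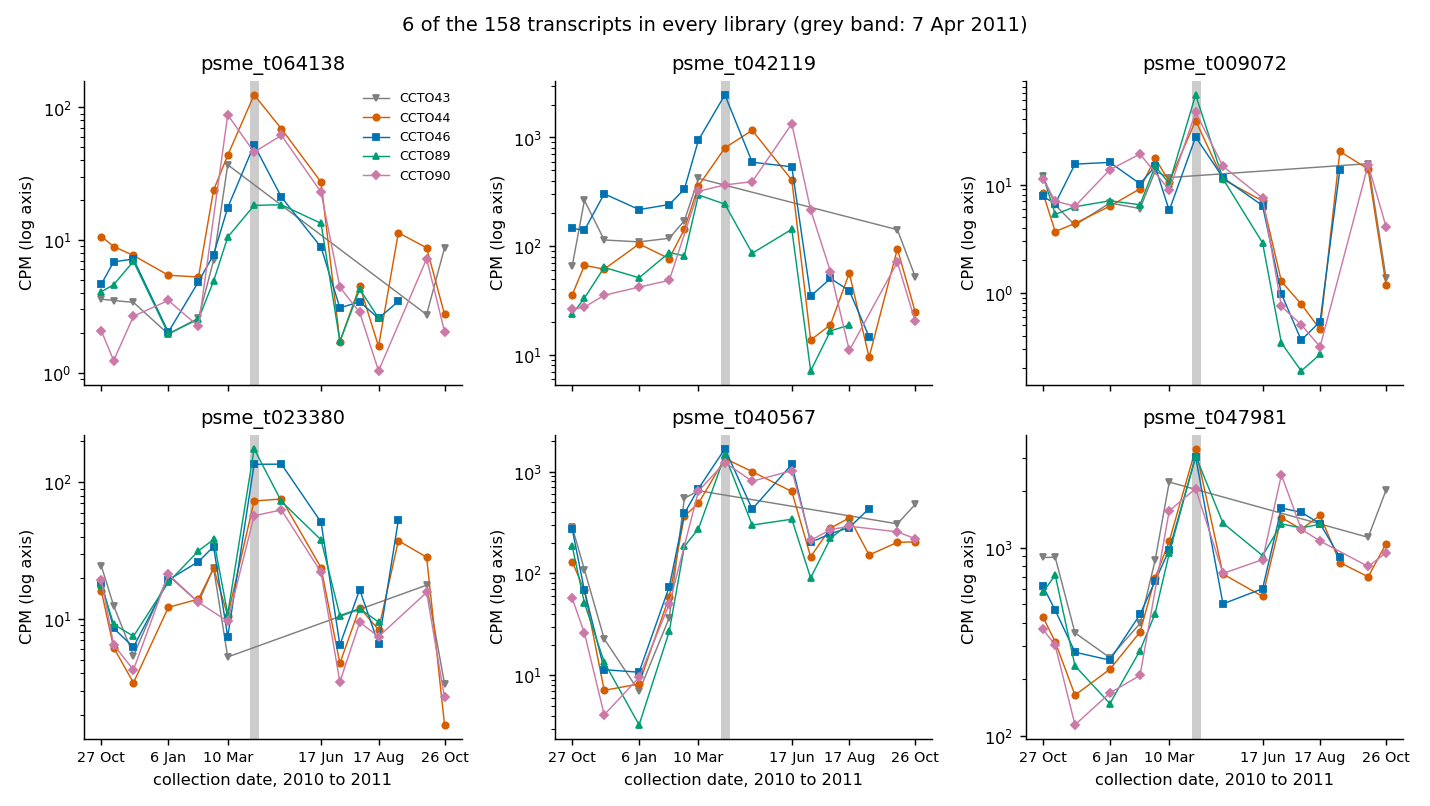
Level in CPM (logarithmic vertical axis) of 6 of the 158 transcripts in every library, by collection date (horizontal axis); symbols and colours mark the trees, and the grey band marks 7 Apr. The CCTO43 line joins 10 Mar and 7 Oct directly because the tree has no library between them. The trees lie close together on 7 Apr in psme_t040567, at 1225 to 1670 CPM, and far apart in psme_t042119, at 243 to 2468 CPM.

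Whether the date holds in each tree was read from the trees singly. Among its own dates, 7 Apr was the highest for 92 of the 158 transcripts in CCTO44, 122 in CCTO46, 102 in CCTO89 and 66 in CCTO90. It was the highest in all 4 trees for 20 transcripts, in 3 trees for 58, in 2 for 50, in 1 for 28 and in none for 2. The last were psme_t026029 and psme_t026819, whose second highest date means stood at 96.8% and 99.6% of the 7 Apr mean. Since the date means decided the choice, an excess of 7 Apr in each tree was built in. CCTO90 had 54 of the 158 transcripts (34.2%) highest on 10 Mar, where 7.73% of all transcripts of 10 to 1000 CPM with a range of at least 4 were, and in CCTO90 the 7 Apr level was below the 10 Mar level in 62 transcripts, against 31 in CCTO44, 23 in CCTO89 and 5 in CCTO46. As shares these were 39.2% in CCTO90, 19.6% in CCTO44, 14.6% in CCTO89 and 3.17% in CCTO46, where 37.7%, 60.6%, 70.9% and 45.2% of all transcripts of 10 to 1000 CPM were below their 10 Mar level in the same trees. The share of the set was thus close to that of other transcripts in CCTO90 and under it in the other trees, as the choice of the set favours. CCTO90 was also the lowest of the 4 trees on 7 Apr in 61 transcripts and the highest in 15. CCTO44 was the highest in 60 and the lowest in 18, CCTO89 the highest in 51 and the lowest in 49. CCTO46 was the highest in 32 and the lowest in 30. In CCTO43, which has no 7 Apr library, 110 of the 158 transcripts (69.6%) were highest on 10 Mar and 22 (13.9%) on 23 Feb among its 9 dates, where 15.55% and 8.35% of all transcripts of 10 to 1000 CPM with a range of at least 4 were.

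A reading that the choice did not use came from applying the same rule to the libraries of the other trees and then looking at the tree left out. Without CCTO44 the rule chose 192 transcripts, and 84 of them (43.75%) were highest on 7 Apr in CCTO44, against 3.49% of the other transcripts of 10 to 1000 CPM with a range of at least 4. Without CCTO46 it chose 157, of which 103 (65.6%) were highest on 7 Apr in CCTO46, against 4.12%. For CCTO89 the numbers were 68 of 200 (34%) against 5.17%, and for CCTO90 56 of 200 (28%) against 2.64%. The peak date thus carried over to the tree left out in a minority of the transcripts in 3 trees and in a majority in CCTO46.

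The size of the 7 Apr level in the tree left out was read as well. In that tree, the median level on 7 Apr was 2.02 times the mean of its other dates in CCTO44, 2.03 times in CCTO46, 1.54 times in CCTO89 and 1.89 times in CCTO90. The other transcripts had medians of 0.584, 0.658, 0.525 and 0.742 times in the same order. Above the tree's own mean on 7 Apr were 190 of 192 transcripts in CCTO44, 155 of 157 in CCTO46, 152 of 200 in CCTO89 and 200 of 200 in CCTO90, against 25.4%, 28.1%, 20.7% and 31.5% of the other transcripts in the same trees. All trees share the weather of the day, so these readings are over trees and not over separate springs. The chosen lists shared 125, 122, 106 and 127 transcripts with the set of 158 for CCTO44, CCTO46, CCTO89 and CCTO90, so membership at the edge of the set depends on single trees.

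**Figure D4:**
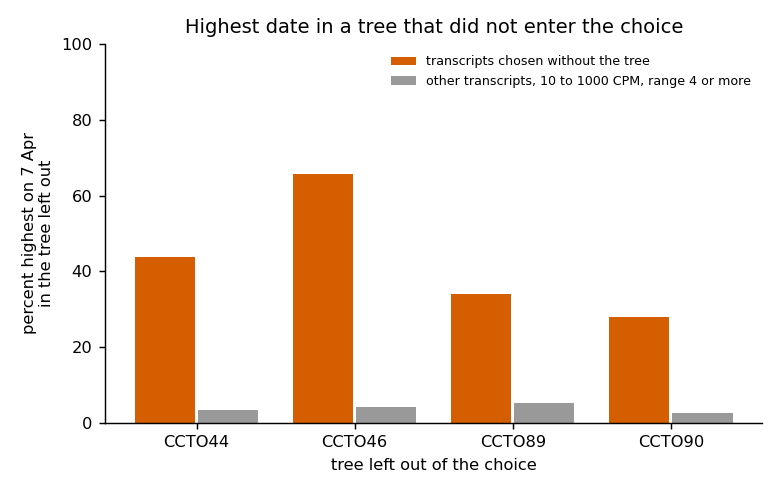
Percent of transcripts highest on 7 Apr (vertical axis) in the tree that was left out when the rule was applied (horizontal axis). Orange bars are the transcripts chosen from the other trees, and grey bars are the other transcripts of 10 to 1000 CPM with a range of at least 4; the orange bars run from 28% in CCTO90 to 65.6% in CCTO46 and the grey bars from 2.64% to 5.17%.

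Dates other than 7 Apr were compared by the quasi-likelihood F test of edgeR in a model that also held the tree, and p-values were adjusted by the Benjamini-Hochberg method over all 60931 transcripts tested. All 158 transcripts passed the filter on low counts. A transcript is counted as called where the adjusted p was under 0.05. The libraries of a date share that day, and the test takes them as independent samples. The direction of none of these comparisons was fixed by the rule, but a transcript that is high on 7 Apr can also be high on the dates around it, and 10 Mar was the second highest date of 70 of the 158. The rule also asked for a range of at least 4, and 26 Oct 2011 was the lowest date of 55 transcripts and 6 Jan of 19. Of the 11682 transcripts of 10 to 1000 CPM used for comparison below, only 4708 met that range. Part of a difference in shares can thus come from the choice of the set.

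The first comparison set the date nearest the summer solstice against that nearest the winter solstice. On 17 Jun, 122 of the 158 transcripts (77.2%) were higher than on 6 Jan and 9 (5.7%) were lower, where 27.3% of all transcripts tested and 41.7% of those with 10 to 1000 CPM were higher and 30.5% and 35.1% were lower. In either direction 131 of the 158 (82.9%) were called, beside 57.9% of all transcripts tested and 76.8% of those with 10 to 1000 CPM. The median log2 change of the 158 was 1.57, beside -0.11 over all transcripts tested and 0.1 over those with 10 to 1000 CPM. Most of the set was therefore still above its midwinter level on 17 Jun. All 12 transcripts of the 17 Jun group were called higher, 60 of 70 in the 10 Mar group and 27 of 31 in the 6 May group, but 8 of 16 in the 23 Feb group and 6 of 18 with another second date. A second highest mean on 17 Jun favours this call by definition, so the count of the 17 Jun group is a description.

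The largest increase was that of psme_t040567. On 17 Jun it had 637 CPM in CCTO44, 1174 CPM in CCTO46, 340 CPM in CCTO89 and 1019 CPM in CCTO90, against 6.96 CPM in CCTO43, 8.24 CPM in CCTO44, 10.7 CPM in CCTO46, 3.27 CPM in CCTO89 and 9.54 CPM in CCTO90 on 6 Jan. The groups lay far apart, with a log2 change of 7.31 ± 0.5 (SE) and an edgeR adjusted p of 5.23e-17. Next was psme_t011357, with 17.3, 24.2, 98.2 and 47.3 CPM in CCTO44, CCTO46, CCTO89 and CCTO90 on 17 Jun, against 0.241 to 2.32 CPM in the 5 libraries of 6 Jan. Its log2 change was 5.59 ± 0.55 (adjusted p 4.44e-12, edgeR), in the same direction in 4 of 4 trees with both dates.

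Of the 9 that were lower on 17 Jun, the largest decreases were those of psme_t014633 and psme_t002194. On 17 Jun psme_t014633 had 6.13 CPM in CCTO44, 3.78 CPM in CCTO46, 2.57 CPM in CCTO89 and 3.18 CPM in CCTO90, against 9.50 to 48.2 CPM in the 5 libraries of 6 Jan. Its log2 change was -2.14 ± 0.33 (adjusted p 2.17e-07, edgeR). This transcript stood at a high winter level, was at 5.97 ± 2.59 CPM on 10 Mar, had 31.3 ± 14.4 CPM on 7 Apr and was at 3.97 ± 2.12 CPM on 6 May. For psme_t002194 the levels on 17 Jun were 2.01 to 4.48 CPM in 4 libraries, against 10.7 to 24.0 CPM in 5 libraries of 6 Jan, a log2 change of -2.09 ± 0.24 (adjusted p 1.54e-10, edgeR). Its mean was 22.9 ± 3.71 CPM on 23 Feb, 21.4 ± 5.64 CPM on 10 Mar and 25.4 ± 4.76 CPM on 7 Apr, differences within the spread between trees.

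The second comparison set 7 Oct against 10 Mar, dates of about equal day length. On 7 Oct, 127 of the 158 transcripts (80.4%) were lower than on 10 Mar and 5 (3.16%) were higher, where 16.7% of all transcripts tested and 29.0% of those with 10 to 1000 CPM were lower and 15.7% and 24.7% were higher. In either direction 132 (83.5%) were called, beside 32.3% and 53.8%. The median log2 change of the 158 was -1.59, beside -0.05 over all transcripts tested. At a similar day length, then, most of the set was low in autumn and high in late winter. In the 10 Mar group 65 of 70 were lower, a group that was defined by its 10 Mar level. In the other groups, 23 of 31 with 6 May as the second date, 11 of 16 with 23 Feb, 10 of 12 with 17 Jun, 8 of 11 with 7 Sep and 10 of 18 with another date were lower. The count of 5 higher transcripts was 3 without CCTO44 and 3 without the tree as a block. Of the 158, 103 were both higher on 17 Jun than on 6 Jan and lower on 7 Oct than on 10 Mar (65.2%), and 12 were neither (7.59%). Of the transcripts tested with 10 to 1000 CPM 18.7% were both and 48.0% neither, and of all transcripts tested 8.28% and 64.3%.

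The largest decreases were those of psme_t011074 and psme_t017523. On 7 Oct psme_t011074 had 2.81 CPM in CCTO43, 8.22 CPM in CCTO44 and 3.22 CPM in CCTO90, against 51.2, 78.7, 29.1, 23.7 and 41.1 CPM in CCTO43, CCTO44, CCTO46, CCTO89 and CCTO90 on 10 Mar. The log2 change was -3.78 ± 0.43 (adjusted p 1.71e-09, edgeR), and the groups did not overlap. For psme_t017523 the levels were 1.61 to 6.65 CPM in the 3 libraries of 7 Oct, against 14.3 to 50.02 CPM in the 5 libraries of 10 Mar, a log2 change of -3.73 ± 0.45 (adjusted p 7.98e-09, edgeR).

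Of the 5 that were higher in October, psme_t046497 had 26.5 CPM in CCTO43, 46.4 CPM in CCTO44 and 37.5 CPM in CCTO90 on 7 Oct, against 4.32 to 12.6 CPM in the 5 libraries of 10 Mar. Its log2 change was 1.53 ± 0.42 (adjusted p 0.00374, edgeR), and 7 Oct was its second highest date, at 70.1% of the 7 Apr level. The other named transcript, psme_t020241, had 18.5 CPM in CCTO43, 26.3 CPM in CCTO44 and 21.9 CPM in CCTO90 on 7 Oct, against 5.97 to 9.58 CPM on 10 Mar, a log2 change of 1.3 ± 0.25 (adjusted p 5.01e-05, edgeR). This transcript was unlike most of the set: it was at 25.4 to 58.1 CPM on 12 of the 16 dates, and it was at 7.62 ± 1.74 CPM on 10 Mar, 14.5 ± 3.75 CPM on 6 May and 22.2 ± 3.88 CPM on 7 Oct. On 7 Sep it had 0.0924 CPM in CCTO44 and 0.668 CPM in CCTO46. Its peak on 7 Apr was close to the level of 26 Oct 2011, which stood at 99.7% of it.

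The third comparison set the last date against the first, a year apart. On 26 Oct 2011, 52 of the 158 transcripts (32.9%) were lower than on 27 Oct 2010 and 16 (10.1%) were higher, where 15.0% of all transcripts tested and 32.6% of those with 10 to 1000 CPM were lower and 13.8% and 13.4% were higher. In either direction 68 were called, beside 28.8% of all transcripts tested and 45.9% of those with 10 to 1000 CPM. The set's shares thus lay close to those of transcripts of similar level. The median log2 change was -0.27 for the 158, -0.08 over all transcripts tested and -0.22 over those with 10 to 1000 CPM. With RLE scaling in place of TMM, which shifts the median of all transcripts by 0.13 on the log2 scale, 43 were lower and 22 were higher. The split also moved with single trees: 33 were lower without CCTO44, while 9 were higher without CCTO43 or without its 26 Oct 2011 library alone, and 10 were higher without CCTO46. The number called higher was 5 with no filter on low counts, 10 without the tree as a block and 24 with DESeq2.

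The largest decrease over the year was that of psme_t037378. On 26 Oct 2011 it had 3.67 CPM in CCTO43, 9.09 CPM in CCTO44 and 8.33 CPM in CCTO90, against 43.9 to 76.7 CPM in the 5 libraries of 27 Oct 2010. The log2 change was -2.92 ± 0.32 (adjusted p 7.52e-10, edgeR). This transcript was at 50.8 to 81.6 CPM from 27 Oct 2010 to 23 Feb, at 15.1 ± 5.84 CPM on 10 Mar, at 100.3 ± 34.9 CPM on 7 Apr and at 2.40 to 3.46 CPM from 7 Jul to 17 Aug. On 7 Sep it was back at 69.55 ± 45.7 CPM (n = 2), and on 7 Oct it was at 21.75 ± 3.24 CPM (n = 3). For psme_t023380 the levels on 26 Oct 2011 were 3.37 CPM in CCTO43, 1.68 CPM in CCTO44 and 2.67 CPM in CCTO90, against 16.0 to 24.4 CPM in the 5 libraries of 27 Oct 2010. The log2 change was -2.5 ± 0.37 (adjusted p 1.02e-06, edgeR), and in both transcripts the groups did not overlap.

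Higher on 26 Oct 2011 was psme_t020732, with 11.1 CPM in CCTO43, 13.0 CPM in CCTO44 and 16.2 CPM in CCTO90, against 2.71 to 9.79 CPM in the 5 libraries of 27 Oct 2010. Its log2 change was 1.59 ± 0.31 (adjusted p 7.23e-05, edgeR). For psme_t011357 the levels were 4.06, 4.32 and 7.54 CPM in CCTO43, CCTO44 and CCTO90, against 0.623 to 4.23 CPM. Here the groups overlapped, and the log2 change of 1.62 ± 0.55 (adjusted p 0.0209, edgeR) did not pass without CCTO43 (1.77), without CCTO44 (1.23), with no filter on low counts (1.56) or without the tree as a block (1.2).

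**Figure D5:**
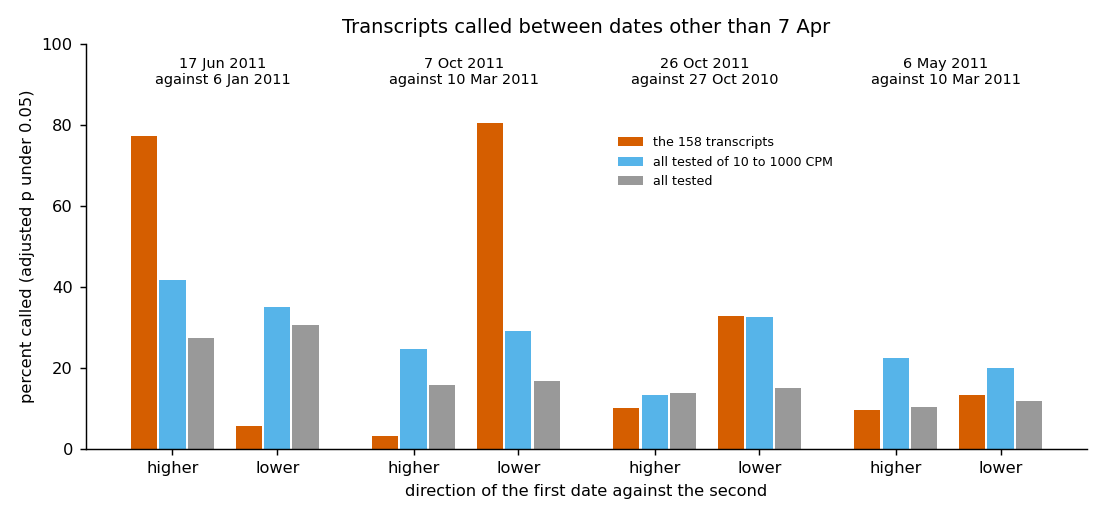
Percent of transcripts called higher or lower (vertical axis; edgeR adjusted p under 0.05) in 4 comparisons of dates other than 7 Apr, each read as the first date against the second. Orange bars are the 158 transcripts, blue bars all tested transcripts of 10 to 1000 CPM and grey bars all transcripts tested; the orange bars reach 77.2% higher on 17 Jun than on 6 Jan and 80.4% lower on 7 Oct than on 10 Mar.

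The last comparison of dates set the flanks of the peak against each other. On 6 May, 15 of the 158 transcripts (9.49%) were higher than on 10 Mar and 21 (13.3%) were lower, where 10.4% of all transcripts tested and 22.5% of those with 10 to 1000 CPM were higher and 11.7% and 20.0% were lower. In either direction 36 (22.8%) were called, beside 22.1% and 42.5%. The median log2 change of the 158 was -0.04. For the remaining transcripts neither direction was called, which does not show that the flanks were equal. The calls depended on the block and on CCTO44: 10 higher and 11 lower were called without the tree as a block, and 8 higher were called without CCTO44. Of the 15 higher transcripts 9 belonged to the 6 May group and none to the 10 Mar group, a split that the grouping by second date favours by its definition.

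Higher on 6 May were psme_t023380 and psme_t021239. On 6 May psme_t023380 had 75.5 CPM in CCTO44, 136 CPM in CCTO46, 72.4 CPM in CCTO89 and 62.8 CPM in CCTO90, against 5.28 to 10.9 CPM in the 5 libraries of 10 Mar. The log2 change was 3.4 ± 0.3 (adjusted p 2.37e-12, edgeR). On 7 Apr the same trees had 73.0, 135, 176 and 56.9 CPM, so that CCTO89 alone was far above its 6 May level. For psme_t021239 the levels were 37.7 to 73.9 CPM on 6 May, against 4.10 to 7.98 CPM on 10 Mar, a log2 change of 3.23 ± 0.29 (adjusted p 2.27e-12, edgeR). Both transcripts went through a low on 10 Mar, having had 29.8 ± 7.40 CPM (psme_t023380) and 16.5 ± 4.12 CPM (psme_t021239) on 23 Feb.

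Lower on 6 May were psme_t006061 and psme_t017523. On 6 May psme_t006061 had 25.9 CPM in CCTO44, 13.2 CPM in CCTO46, 11.6 CPM in CCTO89 and 7.01 CPM in CCTO90, against 30.8 to 82.9 CPM in the 5 libraries of 10 Mar. The groups did not overlap, and the log2 change was -1.76 ± 0.33 (adjusted p 6.75e-05, edgeR). Its 7 Apr mean, 53.3 ± 26.7 CPM, and its 10 Mar mean, 53.3 ± 23.7 CPM, can hardly be ordered. For psme_t017523 the levels were 6.09 to 12.2 CPM on 6 May, against 14.3 to 50.02 CPM on 10 Mar, a log2 change of -1.71 ± 0.36 (adjusted p 0.000353, edgeR), which did not pass without the tree as a block (-1.65).

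Differences between trees over the whole year were tested jointly in the same model. They were called for 121 of the 158 transcripts (76.6%), where 71.5% of all transcripts tested and 75.3% of those with 10 to 1000 CPM were called. The share of the set is close to both. The median range of the fitted tree effects was 0.62 on the log2 scale for the 158, 1.11 over all transcripts tested and 0.48 over those with 10 to 1000 CPM. Among the 121, CCTO43 was the highest tree in 41, CCTO44 in 33, CCTO90 in 20, CCTO89 in 14 and CCTO46 in 13. The libraries of a tree were counted as its replicates in this test, so it compares these 5 trees and not their seed sites. With the 17 Aug libraries of CCTO44 and CCTO46 left out 126 were called, and with their tree names exchanged 123.

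The widest range of tree effects was that of psme_t022506, 2.99 on the log2 scale (adjusted p 1.59e-13, edgeR). Over its dates it had a median of 21.9 CPM in CCTO44 (16 libraries), against 5.33 CPM in CCTO46, 4.17 CPM in CCTO90, 3.37 CPM in CCTO43 and 3.05 CPM in CCTO89. CCTO44 was likewise high on 7 Apr, with 90.1 CPM, against 16.2 CPM in CCTO46, 13.2 CPM in CCTO89 and 17.9 CPM in CCTO90, and yet 7 Apr was the highest date in all 4 trees. For psme_t020139 the range was 2.57 (adjusted p 1.99e-11, edgeR), with medians of 34.1 CPM in CCTO46, 32.3 CPM in CCTO44, 18.0 CPM in CCTO89, 14.5 CPM in CCTO90 and 6.39 CPM in CCTO43. For psme_t007804 the range was 2.32 (adjusted p 4.22e-14, edgeR), with medians of 40.7 CPM in CCTO44, 31.6 CPM in CCTO89, 28.7 CPM in CCTO46, 26.8 CPM in CCTO90 and 12.5 CPM in CCTO43. The highest date was 7 Apr in 4 trees for psme_t022506, in 3 for psme_t020139 and in 2 for psme_t007804. Each range depended most on 1 tree: it was 0.84 for psme_t022506 without CCTO44, and 1.28 for psme_t020139 and 1.18 for psme_t007804 without CCTO43, still called in each case. Without CCTO44 the range of psme_t007804 was 1.74.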

How the data were processed

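Per the labels' protocols, needle RNA of 5 trees went into strand-specific poly(A) libraries for Illumina sequencing. In the submitters' processing notes stand DESeq, Bowtie2 2.2.3 and CASAVA 1.8, without their roles; reference transcripts and counting settings were not found in the labels or headers. All levels and tests rest on the authors' deposited table of whole-number counts. The authors also deposited normalized signal for 36145 transcripts, equal to the counts over 1 factor per library (largest relative deviation 5.1e-15), and values of the same kind that they interpolated to 16 dates in 2 series. Both served only as alternatives.

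CPM used library totals. Tests ran in R 4.3.3 under edgeR 4.0.16 (limma 3.58.1), with filterByExpr (date as group, minimum count 10), TMM factors, date and tree in the model, a robust quasi-likelihood fit and Benjamini-Hochberg adjustment over 60931 transcripts. The SE of a log2 change was derived from the test, as the size of the change over the square root of the F statistic. The tests were checked on simulated counts, and there the comparisons of dates missed many of the changes put in. A transcript that was not called is therefore not shown to be unchanged. The tree is the pairing, since the same tree returns on each date; after date means were removed, the median correlation was 0.554 for libraries of the same tree and -0.158 for libraries of different trees.

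The members and the lists were chosen with earlier results of these data known. Transcripts were named by a rule: the 10 largest ratios of 7 Apr to the other dates, the 3 highest means on 7 Apr, the median rank, the edges of the thresholds, per contrast the 2 largest called changes in each direction shared by every tree with both dates, and the 3 widest ranges of tree effects. Fewer than 200 transcripts qualified, so no limit on the ratio applied and the edges are those of the range and of the single 7 Apr libraries. Gene lists could not be used, as no file gives names for the identifiers. Alternatives were RLE size factors, no filter, DESeq2 1.42.0, no tree block, each tree left out and, chosen after seeing the data, the 17 Aug libraries of CCTO44 and CCTO46 left out or exchanged and the CCTO43 library of 26 Oct 2011 left out.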

Additional observations from a re-analysis of the deposited data

Results flagged for a closer look

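In 3 of 40 groups of libraries examined, a single library lay far from the others of its date; chance flags about 1 in 20 such groups. All 3 are levels of CCTO44 on 7 Apr. For psme_t006061 CCTO44 had 92.88 CPM, against 34.4 to 43.9 CPM in the other trees. Its near-parallel partner psme_t011074 had 89.28 CPM in CCTO44, against 33.3 to 35.9 CPM, and is not a separate observation. For psme_t022506 CCTO44 had 90.1 CPM, against 13.2 to 17.9 CPM. This transcript was named for its wide range of tree effects, with CCTO44 as the highest tree, so the naming favoured its flag. The count of 3 is therefore not to be set against the share that chance flags. CCTO44 was also the highest tree for psme_t006061 on 23 Feb, with 59.1 CPM against 11.5 to 24.8 CPM, and on 10 Mar, with 82.9 CPM against 30.8 to 74.3 CPM.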

How the results depend on the processing

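Of 70 alternative values of the main counts, 69 stayed within 1.5 times the value as reported. The exception was the number of the 158 transcripts called on 6 May against 10 Mar, which was 36 with the tree as a block and 21 without this replicate block. Among the 70 is a ratio to the highest other date, which had to keep all 158 because fewer than 200 qualified. Calls were counted here in either direction, and counts in 1 direction moved more. Those higher on 26 Oct 2011 went from 16 to 5 with no filter, and those higher on 6 May from 15 to 8 without CCTO44. Without the block the other comparisons called 121 for 17 Jun against 6 Jan (131 with it), 113 for 7 Oct against 10 Mar (132) and 48 for 26 Oct 2011 against 27 Oct 2010 (68). Leaving out each tree in turn gave 124 to 130, 121 to 134 and 47 to 60 calls in these comparisons, 27 to 35 for 6 May against 10 Mar, and 93 to 114 for the differences between trees. With the 17 Aug libraries of CCTO44 and CCTO46 left out, 133 were called for 17 Jun against 6 Jan, 134 for 7 Oct against 10 Mar, 72 for 26 Oct 2011 against 27 Oct 2010 and 38 for 6 May against 10 Mar; with their tree names exchanged 132, 134, 71 and 38 were, and the range of psme_t022506 was 3.07 and 3.1. Membership moved more: 125 of the 158 were chosen again with TMM library sizes, 125 from the deposited normalized table, 122 with date medians, 145 without the CCTO43 library of 26 Oct 2011, and 106 to 132 with a tree left out. With TMM library sizes and from the normalized table the rule chose 200 transcripts each, the most it keeps, and so it did without CCTO89 and without CCTO90. In these lists a transcript of the 158 could also be lost to the limit of 200. In the mean of the 2 deposited interpolated series, 122 of the 158 were highest on 14 Apr, the nearest date. In that mean 21 were highest on 21 Mar, 10 on 7 Sep and 5 on 9 May. Fewer were highest on 14 Apr in the single series, 89 in series A and 91 in series B. Only the mean of the series is among the 70 values. For single named transcripts, 217 alternative values kept direction and call, 5 lost the call (all given above) and none turned its direction. Low counts limit the transcripts at under 1 CPM on some dates, and 2 or 3 trees limit the dates from 7 Sep on.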
